A study of Mus musculus with 21 samples.

Results

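Inflammatory monocytes (IMs) leave the bone marrow (BM) and enter tumors, where they are called tumor-infiltrating IMs (TIMs). The comparison described here asked how the change from marrow to metastasis differed between lymph node metastases of one mouse lung squamous carcinoma model and lung metastases of another. It was the lymph node change (LN2E1 lymph node TIMs minus FVB BM IMs) minus the lung change (LN4K1 lung TIMs minus DBA2 BM IMs), and it is called the interaction below. It used 16 of the 21 RNA-Seq libraries of the series, chosen by their labels alone. LN2E1 lymph node TIMs (n = 5) were sorted from lymph node metastases of FVB mice whose lung had received 500000 KAL-LN2-E1 cells orthotopically, and FVB BM IMs (n = 3) came from FVB mice without tumors. LN4K1 lung TIMs (n = 5) were sorted from lungs of DBA2 mice that had received 300000 LN4K1 cells intravenously, and DBA2 BM IMs (n = 3) came from DBA2 mice without tumors. Each model is a transplanted cell line in 1 inbred strain, and the lung metastases were experimental ones seeded from the blood. TIMs were gated as CD45+ SiglecF- CD11b+ Ly6G- Ly6C-high cells. Strain, cell line, route of injection and metastatic site changed together between the models, so their parts in the interaction cannot be told apart. The study describes its replicates as technical, so p-values measure the spread between these libraries, which may be smaller than the spread between animals.

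IMs are short-lived myeloid cells that are made in the marrow, leave it through the chemokine receptor Ccr2 and can become macrophages or dendritic cells in tissue. Type I interferons act through the receptor chains Ifnar1 and Ifnar2 and factors that include Stat2 and Irf9, which bind the interferon-stimulated response element in the promoters of antiviral genes. Interferon-gamma acts on the gamma-activated site, and it is the main inducer of the guanylate-binding proteins and immunity-related GTPases of macrophages. Low oxygen acts through Hif1a on genes of glycolysis and on Vegfa.

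Total counts per library lay between 80772922 and 101043568, and 14450 of 23420 genes passed the filter on low counts. A pair of libraries stood apart from their groups. Lymph node TIM replicate 1 had 11047 genes with at least 10 counts, and its mast cell and basophil markers summed to 471 CPM (counts scaled to library size), where the whole lymph node group ran from 4.65 to 471 CPM with a median of 19.97. Lung TIM replicate 3 had 12015 such genes. Some counts below are therefore also given without both of them, and the other counts can have moved too. Of the sort markers, Ly6c2 (Ly6C) had a mean of 3051 CPM in FVB BM IMs, 1351 in lymph node TIMs, 2651 in DBA2 BM IMs and 1460 in lung TIMs, and its interaction of -0.32 on the log2 scale did not pass the test (edgeR adjusted p = 0.437). Ptprc (CD45) had an interaction of 0.86 ± 0.22 (SE, edgeR adjusted p = 0.0159), Itgam (CD11b) one of 1.12 ± 0.42 (edgeR adjusted p = 0.085) and Ccr2 one of -0.60 ± 0.18 (edgeR adjusted p = 0.0333). The Ptprc call held in 15 and the Ccr2 call in 8 of the 16 models that leave out 1 library. Each of the 4 had a mean over 100 CPM in every group.

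The lymph node change was the broader one, and 2223 of 14450 genes (15.4%) differed between the changes at an adjusted p under 0.05. Of these, 1176 (8.14% of genes tested) had a larger log2 change in the lymph node arm and 1047 (7.25%) a smaller one, and the median interaction over all genes tested was -0.10 (log2). The absolute interaction of the called genes had a median of 1.32, with quartiles at 0.93 and 2.11. Without both libraries that stood apart, 3529 genes were called. The count was 1234 without FVB BM IM replicate 1, 1258 without FVB BM IM replicate 2, 1289 without DBA2 BM IM replicate 2 and 1315 without DBA2 BM IM replicate 3, and the other single omissions moved it by less than 1.5 times (3032 without lymph node TIM replicate 1). In the same model, 2911 genes (20.1%) were higher and 2907 (20.1%) lower in lymph node TIMs than in FVB BM IMs, while 1783 (12.3%) were higher and 1175 (8.13%) lower in lung TIMs than in DBA2 BM IMs, together 2958 and 1967 without DBA2 BM IM replicate 2. A set of 1045 genes (7.23%) was called in the full model and again each time 1 of the 16 libraries was left out.

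Most called genes moved in the lymph node arm. For 716 of them the lymph node change passed upward and the lung change did not pass, and for 649 the lymph node change passed downward and the lung change did not pass. Another 308 genes rose in both arms and rose more in the lymph node, against 27 that rose more in the lung. Both arms fell for 102 genes with the larger fall in the lymph node and for 12 with the larger fall in the lung. The lung change passed and the lymph node change did not for 161 genes that rose and 72 that fell. Opposite changes that both passed were rare, at 93 genes (0.644%), and 83 called genes passed in neither arm. The plot of both changes shows these genes away from its diagonal.

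**Figure D1:**
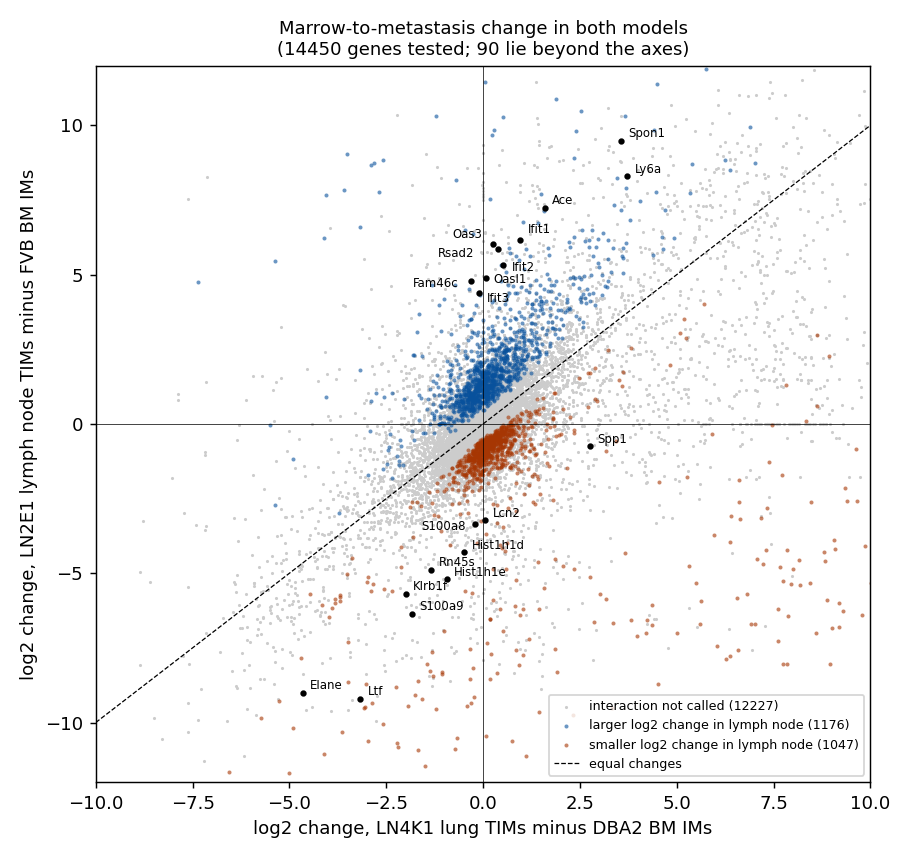
Each point is 1 of 14450 genes tested, with the log2 change in the LN4K1 lung arm on the x axis and in the LN2E1 lymph node arm on the y axis. Blue points (1176) lie above and orange points (1047) below the line of equal changes, and the labelled genes are those with the largest interactions in each direction among genes called in all 16 models without 1 library and averaging over 3 in log2 CPM, such as Spon1 at 9.48 and 3.56 and Ltf at -9.20 and -3.17.

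Genes of the type I interferon response rose in the lymph node arm and changed little in the lung arm. All 28 members were tested, 28 rose in lymph node TIMs, and in lung TIMs 8 rose and 2 fell. Of all genes, 20.1% rose in the lymph node arm, and 12.3% rose and 8.13% fell in the lung arm. The interaction was higher for 27 of 28 members and lower for 0, beside 8.14% and 7.25% of all genes. The list's median interaction was 2.75, against -0.10 for all genes, from a median lymph node change of 3.33 and a median lung change of 0.47. All 28 were called without both libraries that stood apart, and between 25 and 28 were called under every alternative tried. The member that was not called was Irf9, the DNA-binding partner of Stat2, at 0.50 ± 0.18 (SE, edgeR adjusted p = 0.0666). Adjusted or not, no member was lower at p under 0.05 in edgeR, and 28 were higher and 0 lower by DESeq2 and by limma voom. As these are bulk libraries, fewer cells of a type and less RNA per cell cannot be told apart, here and below.

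Rsad2, the antiviral enzyme viperin, lay at 3.70, 2.79 and 6.05 CPM in FVB BM IMs and at 254, 211, 194, 296 and 252 CPM in lymph node TIMs, but at 19.1, 23.4 and 14.1 CPM in DBA2 BM IMs and at 26.3, 20.4, 29.1, 22.6 and 24.3 CPM in lung TIMs. The lymph node groups were far apart and the lung groups overlapped. The lymph node change was 5.85 ± 0.30, the lung change 0.38 ± 0.22 and the interaction 5.47 ± 0.34 (log2, SE, edgeR adjusted p = 3.33e-07).

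Oas3, which makes the 2-5A second messenger on sensing double-stranded RNA, was nearly silent in FVB BM IMs at 0.822, 0.347 and 1.14 CPM and reached 31.1, 42.4, 53.3, 46.4 and 81.4 CPM in lymph node TIMs. DBA2 BM IMs already stood at 10.7, 30.1 and 17.97 CPM, and lung TIMs had 34.6, 27.6, 17.3, 23.3 and 13.3 CPM. The TIM groups overlapped, and the interaction of 5.79 ± 0.63 (log2, SE, edgeR adjusted p = 2.13e-05) had a BM IM difference of -4.66 and a TIM difference of 1.13.

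Ifit1, Ifit2 and Ifit3 encode proteins that bind foreign RNA, and they lie in 1 cluster on chromosome 19. Ifit1 lay at 3.95, 3.38 and 1.45 CPM in FVB BM IMs, at 205, 220, 118, 292 and 200 CPM in lymph node TIMs, at 22.5, 14.6 and 13.8 CPM in DBA2 BM IMs and at 35.8, 26.4, 53.6, 30.4 and 19.3 CPM in lung TIMs. Ifit2 lay at 12.7, 6.24 and 8.76 CPM in FVB BM IMs, at 291, 378, 270, 602 and 296 CPM in lymph node TIMs, at 38.7, 52.5 and 39.96 CPM in DBA2 BM IMs and at 73.9, 66.5, 69.4, 71.0 and 31.5 CPM in lung TIMs. Both genes were higher in every lymph node TIM library than in any library of the other groups. Ifit3 lay at 7.91, 7.84 and 7.45 CPM in FVB BM IMs, at 160.5, 193, 110.5, 200 and 146 CPM in lymph node TIMs, at 71.8, 81.8 and 61.8 CPM in DBA2 BM IMs and at 81.5, 54.2, 99.3, 59.8 and 40.8 CPM in lung TIMs. Its lung change was -0.10 ± 0.24 (edgeR adjusted p = 0.844). The interactions were 5.18 ± 0.53, 4.80 ± 0.45 and 4.49 ± 0.36 for Ifit1, Ifit2 and Ifit3 (log2, SE, edgeR adjusted p = 1.28e-05, 6.27e-06 and 1.60e-06).

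Oasl1, which holds back translation of Irf7, lay at 3.22, 2.60 and 3.58 CPM in FVB BM IMs, at 91.5, 95.1, 60.0, 102 and 119 CPM in lymph node TIMs, at 16.3, 19.9 and 12.7 CPM in DBA2 BM IMs and at 29.2, 18.2, 7.77, 17.7 and 13.3 CPM in lung TIMs. The lung groups overlapped fully, and the interaction was 4.82 ± 0.47 (log2, SE, edgeR adjusted p = 8.77e-06). Its exons overlap Gm13822 on the opposite strand, and since the libraries were not strand-specific, reads of the pair cannot be told apart.

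Irf7, the factor that amplifies type I interferon, had a mean of 94.3 CPM in FVB BM IMs, 1115 in lymph node TIMs, 286 in DBA2 BM IMs and 418 in lung TIMs, with an interaction of 3.02 ± 0.33 (log2, SE, edgeR adjusted p = 2.36e-05). Ifi44 had the largest interaction of the list, 6.61 ± 0.74 (log2, SE, edgeR adjusted p = 2.97e-05), from a mean of only 0.289 CPM in FVB BM IMs. The members that fell in the lung arm were Mx1, a dynamin-like antiviral GTPase, at -0.71, and Cmpk2, a mitochondrial nucleotide kinase next to Rsad2, at -0.82, and both rose in the lymph node, by 2.13 and 1.13 (log2). These 2 were picked out after their values were seen.

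**Figure D2:**
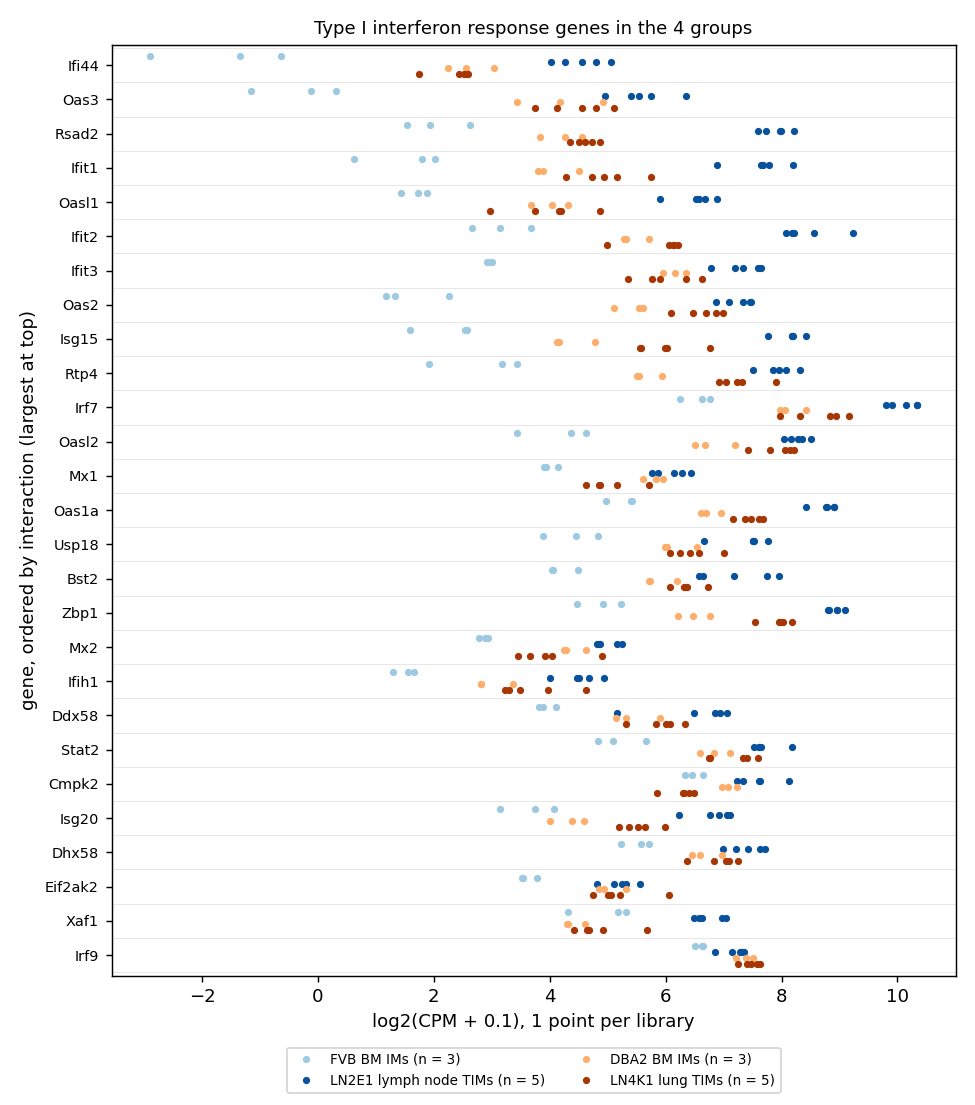
Each row is a type I interferon response gene (27 of the 28 are drawn), ordered by interaction, and each point is 1 library on a log2(CPM + 0.1) axis. In most rows the FVB BM IM points are the leftmost, the DBA2 BM IM and LN4K1 lung TIM points lie together in the middle, and the LN2E1 lymph node TIM points are the rightmost.

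Much of this interaction lay between the marrow groups. Every DBA2 BM IM library was above every FVB BM IM library for 26 of the 28 genes, where this held for 19.6% of all genes tested. Every lymph node TIM library was above every FVB BM IM library for 28 (18.3% of all genes), and every lung TIM library above every DBA2 BM IM library for 8 (16.9%). Between the TIM groups, every lymph node library was above every lung library for 15 (9.63%). In 18 of the 27 called members the difference between the BM IM groups was larger than that between the TIM groups, beside 707 (31.8%) of all 2223 called genes. Over the list the TIM difference was above 0 for 26 members and the BM IM difference below 0 for 27. Other marrow cell types also differed between strains. Mast cell and basophil markers summed to 237 to 289 CPM in FVB BM IMs and to 14.6 to 30.0 CPM in DBA2 BM IMs, and the ribosomal RNA gene Rn45s ran from 5379 to 19187 CPM and from 979 to 1814 CPM. Their part in the interferon result was not tested.

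The promoters of the leading members are shown because these genes moved together and the response element is known from interferon-induced genes. RefSeq promoters on GRCm38.p6, here the 250 bases before the start site, were at hand for 20 of the 28 genes. The interferon-stimulated response element was searched on both strands as GAAA, any 2 bases and GAAA, and its matches are in capitals. A match that reads TTTC, any 2 bases and TTTC is on the other strand.
Oas3, chr5:120777660-120777909, minus strand: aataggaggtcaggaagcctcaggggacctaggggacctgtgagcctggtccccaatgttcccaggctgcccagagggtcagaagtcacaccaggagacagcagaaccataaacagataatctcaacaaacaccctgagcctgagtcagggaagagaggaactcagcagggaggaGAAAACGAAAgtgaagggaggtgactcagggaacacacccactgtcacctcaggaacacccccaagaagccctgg
Rsad2, chr12:26456453-26456702, minus strand: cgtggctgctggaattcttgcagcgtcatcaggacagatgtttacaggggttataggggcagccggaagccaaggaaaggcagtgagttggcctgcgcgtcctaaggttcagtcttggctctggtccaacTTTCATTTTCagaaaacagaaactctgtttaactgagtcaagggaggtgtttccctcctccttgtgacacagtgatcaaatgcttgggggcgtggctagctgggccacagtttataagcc
Ifit1, chr19:34640639-34640888, plus strand: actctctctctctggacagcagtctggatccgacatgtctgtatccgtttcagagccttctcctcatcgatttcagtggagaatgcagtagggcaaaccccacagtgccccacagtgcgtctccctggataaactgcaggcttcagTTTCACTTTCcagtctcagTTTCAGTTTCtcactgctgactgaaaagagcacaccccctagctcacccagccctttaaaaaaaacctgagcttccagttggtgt
Ifit3, chr19:34583279-34583528, plus strand: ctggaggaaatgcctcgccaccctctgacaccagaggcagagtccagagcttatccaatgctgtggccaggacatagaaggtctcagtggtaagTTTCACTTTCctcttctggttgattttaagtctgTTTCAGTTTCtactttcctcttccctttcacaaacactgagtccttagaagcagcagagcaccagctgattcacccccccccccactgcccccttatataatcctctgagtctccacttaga
The match began 75 bases before the start in Oas3, 120 before it in Rsad2, 104 and 85 before it in Ifit1 and 156 and 122 before it in Ifit3. Neither Oasl1 nor Ifit2 held these letters in the window. Of the list's 20 promoters 8 (40%) held the motif, and so did 350 of the 10513 promoters of all genes tested (3.33%).

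The interferon-inducible GTPases rose in both arms and rose more in the lymph node. Of 19 members tested, 19 rose in lymph node TIMs and 18 in lung TIMs, beside 20.1% and 12.3% of all genes. The median log2 changes were 5.12 and 2.82. The interaction was higher for 15 and lower for 0, beside 8.14% and 7.25% of all genes, and had a median of 2.31. Without both libraries that stood apart it was higher for 15, and for 14 to 16 under every alternative. Gbp2, a guanylate-binding protein that coats intracellular pathogens, lay at 33.0, 21.7 and 10.1 CPM in FVB BM IMs, at 1782, 1277, 1093, 1800 and 1787 CPM in lymph node TIMs, at 40.2, 43.8 and 36.6 CPM in DBA2 BM IMs and at 371, 337, 440, 457 and 262 CPM in lung TIMs. The groups of each arm did not overlap, and the interaction was 2.95 ± 0.41 (log2, SE, edgeR adjusted p = 0.000206). Irf1, an interferon-induced transcription factor, started equal in both marrows (means of 130 and 129 CPM) and reached 1573 CPM in lymph node and 472 CPM in lung TIMs, an interaction of 1.72 ± 0.24 (log2, SE, edgeR adjusted p = 0.000223). Gbp6 differed in the other way, with TIM groups at means of 57.9 and 64.5 CPM and marrow groups at 0.359 and 6.15 CPM, and its interaction was 3.95 ± 0.40 (log2, SE, edgeR adjusted p = 1.35e-05). Gbp10 had the largest of the list at 4.77 ± 0.80, and Tgtp1 had 3.66 ± 0.50. Gbp6 and Gbp10, and likewise Tgtp1 and Tgtp2, are close copies whose reads the counting could have split, so their single values are uncertain. The gamma-activated site, searched as TTCNNNGAA, lay in 8 of 12 promoters at hand (66.7%) and the interferon-stimulated response element in 9 of 12 (75%), against 7.42% and 3.33% of all promoters.

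Ly6a (Sca-1), a surface protein of stem cells that interferons also induce, was level in the marrows and differed between the TIM groups. It lay at 2.89, 3.27 and 2.22 CPM in FVB BM IMs and at 2.39, 3.72 and 2.52 CPM in DBA2 BM IMs. Lymph node TIMs had 1153, 916, 938, 633 and 728 CPM, and lung TIMs 41.2, 35.9, 31.3, 43.8 and 37.95 CPM. Marrow groups overlapped and TIM groups were far apart. The gene lies at chr15:74994877-74998031 on the minus strand of GRCm38, in a cluster of Ly6 copies. The lymph node change was 8.29 ± 0.30, the lung change 3.72 ± 0.24 and the interaction 4.57 ± 0.30 (log2, SE, edgeR adjusted p = 3.33e-07). Cd274 (PD-L1), the ligand of the checkpoint receptor PD-1, had a like shape. It lay at 1.53, 1.84 and 3.11 CPM in FVB BM IMs, at 442, 497, 435, 672 and 561 CPM in lymph node TIMs, at 2.67, 3.41 and 4.15 CPM in DBA2 BM IMs and at 54.0, 47.0, 33.8, 57.4 and 29.3 CPM in lung TIMs. Its interaction was 4.21 ± 0.38 (log2, SE, edgeR adjusted p = 4.16e-06). Over all genes tested, 8.14% were called higher and 7.25% lower. In the list of checkpoint ligands and receptors, 7 of 16 members were higher and 0 lower, with a median of 0.75 (7 and 2 at an unadjusted p under 0.05). Havcr2 (TIM-3) was among them at 2.39 ± 0.26 (log2, SE, edgeR adjusted p = 2.19e-05). Cd72 was at 7.38 ± 1.37, from means of 0.197 CPM in FVB BM IMs and 37.1 CPM in lymph node TIMs against 0.546 and 0.614 CPM in the lung arm. Cd276 was also called, but its FVB BM IM libraries had at most 3 counts each, so no fold is given, and its mean was 6.72 CPM in lymph node and 0.779 CPM in lung TIMs.

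**Figure D3:**
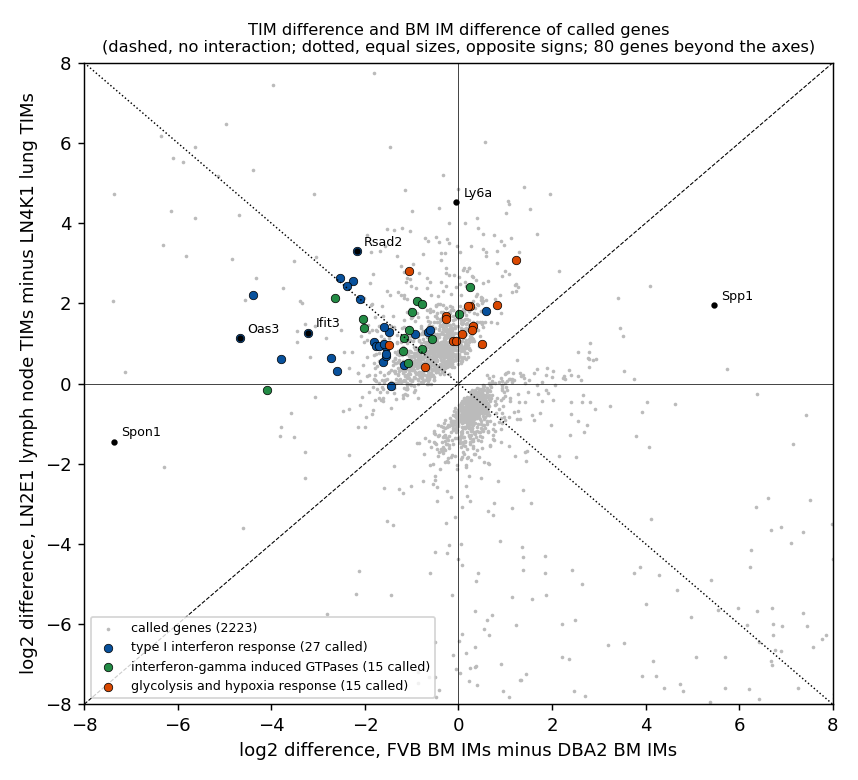
Each grey point is 1 of 2223 called genes, with the FVB minus DBA2 difference between BM IMs on the x axis and the lymph node minus lung difference between TIMs on the y axis, both in log2. Colored points are called members of 3 lists, and Ly6a at 4.52 on the y axis and near 0 on the x axis contrasts with Oas3 and Spon1, which lie far to the left.

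Ace, the angiotensin-converting enzyme that patrolling monocytes and macrophages carry, rose in the lymph node arm from 2.16, 1.70 and 3.16 CPM to 144, 260, 605, 347 and 414 CPM. In the lung arm it went from 6.16, 13.7 and 7.29 CPM to 35.3, 38.8, 19.5, 28.9 and 14.4 CPM, and the interaction was 5.64 ± 0.63 (log2, SE, edgeR adjusted p = 2.71e-05). Its exons overlap Gm11651 on the opposite strand. Fam46c, a poly(A) polymerase of plasma cells, went from 1.79, 1.18 and 3.33 CPM to 62.7, 57.9, 51.8, 52.1 and 64.5 CPM in the lymph node arm. It went from 5.18, 2.38 and 7.09 CPM to 5.11, 3.85, 3.12, 2.31 and 5.23 CPM in the lung arm, whose groups overlapped, with an interaction of 5.09 ± 0.53 (log2, SE, edgeR adjusted p = 1.63e-05). Plasma cell markers were also higher, summing to 196 to 374 CPM in lymph node TIMs and 47.3 to 132 CPM in lung TIMs against 9.57 to 14.4 CPM in marrow. Of these 5 markers, 2 were called higher in the interaction, Prdm1 and the syndecan Sdc1, and 0 lower. The other members were not called, and over all genes tested 8.14% were called higher and 7.25% lower. The part of plasma cells in the Fam46c result was not tested.

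Genes of glycolysis and the hypoxia response rose in the lymph node arm more than in the lung arm. The interaction was higher for 15 of 26 members and lower for 0, beside 8.14% and 7.25% of all genes, with a median of 1.14. In lymph node TIMs 17 rose and 0 fell (20.1% and 20.1% of all genes), while in lung TIMs 4 rose and 3 fell (12.3% and 8.13%). Without both libraries that stood apart 18 were higher, and 13 to 19 were higher across the alternatives, while 0 were lower at an unadjusted p under 0.05, by DESeq2 or by limma voom. Vegfa, the angiogenic factor, lay at 10.4, 8.18 and 15.6 CPM in FVB BM IMs, at 165, 198, 120, 194 and 283 CPM in lymph node TIMs, at 31.8, 21.7 and 17.4 CPM in DBA2 BM IMs and at 26.7, 20.1, 26.3, 37.7 and 27.1 CPM in lung TIMs. The lymph node groups were separate and the lung groups overlapped, with an interaction of 3.85 ± 0.41 (log2, SE, edgeR adjusted p = 1.67e-05). Pdk1, which keeps pyruvate out of mitochondria, and Hk3, a hexokinase of myeloid cells, had interactions of 2.44 ± 0.32 and 1.95 ± 0.33 (log2, SE, edgeR adjusted p = 0.000111 and 0.00117). Hk3 rose by 0.66 in the lymph node arm and fell by 1.29 in the lung arm (log2). Egln3, an oxygen sensor that Hif1a induces, was at 1.84 ± 0.43 (log2, SE, edgeR adjusted p = 0.00967). The core hypoxia element, searched as ACGTG, lay in 13 of 23 promoters at hand (56.5%) and in 24.3% of all promoters.

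Antigen presentation followed in part. Of the MHC class II genes, 3 of 12 were higher and 1 lower, beside 8.14% and 7.25% of all genes. Cd74, the invariant chain, lay at 349, 238.1 and 341 CPM in FVB BM IMs, at 9142, 8572, 8110, 10315 and 13331 CPM in lymph node TIMs, at 427, 527 and 507 CPM in DBA2 BM IMs and at 3015, 3271, 3472, 4833 and 2227 CPM in lung TIMs. Every lymph node TIM library was above every lung TIM library, and the interaction was 2.21 ± 0.31 (log2, SE, edgeR adjusted p = 0.000209). H2-Ab1 and H2-Aa, which encode the chains of I-A, had interactions of 1.81 ± 0.32 and 1.48 ± 0.31, whereas Ifi30, a lysosomal thiol reductase, had -1.21 ± 0.25 (log2, SE, edgeR adjusted p = 0.00163, 0.00505 and 0.00397). Of the MHC class I genes 7 of 16 were higher and 0 lower (8 and 0 at an unadjusted p under 0.05, 4 and 0 without FVB BM IM replicate 2 or DBA2 BM IM replicate 2), led by Nlrc5, their transactivator, at 3.03 ± 0.43 and the peptide transporter subunit Tap1 at 1.97 ± 0.37 (log2, SE, edgeR adjusted p = 0.000220 and 0.00220). Dendritic cell markers summed to 259 to 1055 CPM in lymph node TIMs and 271 to 507 CPM in lung TIMs. In marrow they summed to 112 to 132 CPM in FVB BM IMs and 202 to 243 CPM in DBA2 BM IMs. Of their 12 genes 3, Dpp4, Bst2 and Kmo, were called higher. The other members, among them Flt3, Zbtb46, Xcr1 and Clec9a, were not called. The part of dendritic cells in the class II result was not tested.

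The other direction was ranked among genes called in all 16 models without 1 library and averaging over 3 in log2 CPM. Of the 10 most negative interactions there, 5 were of the neutrophil granule genes Ltf, Elane and Lcn2 or of S100a8 and S100a9. They fell in both arms or in the lymph node arm, and lymph node TIMs ended lower. Ltf (lactoferrin) lay at 274, 327 and 444 CPM in FVB BM IMs and at 0.0369, 2.81, 0.169, 0 and 0 CPM in lymph node TIMs, and at 157, 123 and 120 CPM in DBA2 BM IMs and 19.3, 14.6, 5.67, 6.26 and 28.0 CPM in lung TIMs. Both arms fell without overlap, and the interaction was -6.03 ± 1.46 (log2, SE, edgeR adjusted p = 0.0120). Elane (neutrophil elastase) started level, at means of 489 and 496 CPM in the marrows, and ended at 0.953 and 19.7 CPM, an interaction of -4.36 ± 1.06 (log2, SE, edgeR adjusted p = 0.0122). S100a9 and S100a8, the calprotectin subunits, had interactions of -4.52 ± 0.81 and -3.16 ± 0.59, and Lcn2, an iron-siderophore binder, had -3.28 ± 0.49 (log2, SE, edgeR adjusted p = 0.00160, 0.00214 and 0.000421). S100a8 lay at 681, 607 and 915 CPM in FVB BM IMs, at 122, 98.8, 65.6, 28.4 and 43.0 CPM in lymph node TIMs, at 291, 233 and 273 CPM in DBA2 BM IMs and at 170, 231, 163, 154 and 437 CPM in lung TIMs, where the lung groups overlapped.

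Neutrophil, eosinophil and platelet markers are given beside these genes. Of all genes tested, 8.14% were called higher and 7.25% lower. The neutrophil precursor list holds Ltf, Elane and Lcn2 and the mature list Ltf, S100a8 and S100a9, so both partly recount the genes above. In FVB BM IMs, DBA2 BM IMs, lymph node TIMs and lung TIMs, neutrophil precursor markers summed to 4315 to 5397, 3103 to 3755, 29.4 to 137 and 242 to 640 CPM, and 6 of 11 were called lower and 0 higher (10 lower without both libraries that stood apart). Mature neutrophil markers summed to 2987 to 3774.5, 1983 to 2543, 1175 to 1997 and 1953 to 3138 CPM in that order. Their sums in lung TIMs overlapped those in DBA2 BM IMs. Of these markers 2 of 11 were higher and 5 lower. Eosinophil markers summed to 771 to 1381, 532 to 1323, 21.02 to 60.3 and 25.9 to 132 CPM in the same order, and 4 of 10 were called lower (2 without any 1 DBA2 BM IM library, FVB BM IM replicate 2 or 3 or lung TIM replicate 4). Platelet markers summed to 28.5 to 160, 0.694 to 47.9, 2.63 to 6.55 and 3.91 to 18.05 CPM, and 6 of 8 were called lower, 4 of them with every lymph node TIM library at 3 counts or fewer. The platelet count fell to 2 or 3 without any 1 FVB BM IM library or without DBA2 BM IM replicate 2 or 3. How far these cells account for the values of Ltf, Elane, Lcn2, S100a8 and S100a9 was not tested.

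The other 5 of these 10 genes were 2 histones, a lectin receptor, osteopontin and a ribosomal RNA gene. Genes of lower level had more negative fitted values, such as Ncr1 of NK cells and Prg2 of eosinophils, with at most 3 counts in every library of a group, so no fold is given for them. Hist1h1e, a linker histone, lay at 206, 136 and 107 CPM in FVB BM IMs, at 3.44, 3.65, 5.33, 3.53 and 4.38 CPM in lymph node TIMs, at 74.1, 64.1 and 63.4 CPM in DBA2 BM IMs and at 34.7, 37.4, 26.5, 29.9 and 46.3 CPM in lung TIMs. Its interaction was -4.26 ± 0.32 and that of Hist1h1d -3.81 ± 0.52 (log2, SE, edgeR adjusted p = 9.69e-07 and 0.000176). Hist1h1e overlaps exons of Hist1h2be and Gm11398 on its own strand. Klrb1f, a C-type lectin receptor best known from NK cells, fell from 81.7, 61.4 and 66.7 CPM to 0.492, 1.67, 1.60, 1.74 and 1.24 CPM in the lymph node arm and from 92.5, 113 and 90.6 CPM to 22.7, 20.7, 31.1, 27.9 and 21.7 CPM in the lung arm (interaction -3.70 ± 0.41, log2, SE, edgeR adjusted p = 2.48e-05). Spp1 (osteopontin), a matrix protein of tumor macrophages, differed mostly in marrow. It lay at 243, 237 and 163 CPM in FVB BM IMs and at 2.73, 6.12 and 5.74 CPM in DBA2 BM IMs, and at 169, 148, 89.8, 125 and 107 CPM in lymph node TIMs and 13.4, 49.5, 6.16, 48.3 and 47.6 CPM in lung TIMs, an interaction of -3.51 ± 0.73 (log2, SE, edgeR adjusted p = 0.00489). Spp1 shares exons with Gm42793 on its own strand. Rn45s, the ribosomal RNA gene, had -3.54 ± 0.57 (log2, SE, edgeR adjusted p = 0.000687).

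Opposite changes passed in both arms for 36 genes that rose in the lymph node and fell in the lung and for 57 that did the reverse, and without both libraries that stood apart for 182 in all. The total was between 33 and 59 without any 1 of 7 libraries, which were FVB BM IM replicates 1 and 2, the 3 DBA2 BM IM libraries and lung TIM replicates 4 and 5. Cebpd, a C/EBP factor of acute inflammation, lay at 241, 193 and 214 CPM in FVB BM IMs and 70.9, 74.5, 65.1, 80.9 and 73.9 CPM in lymph node TIMs, but at 181, 151 and 223 CPM in DBA2 BM IMs and 337, 356, 387, 296 and 435 CPM in lung TIMs. The marrow groups overlapped and the TIM groups lay on either side of them, with changes of -1.56 ± 0.14 and 0.97 ± 0.15 and an interaction of -2.54 ± 0.21 (log2, SE, edgeR adjusted p = 1.70e-06). Ccl3, a chemokine that draws monocytes and T cells, followed the same course from 426, 226 and 270 CPM to 103, 92.5, 79.1, 59.6 and 57.8 CPM in the lymph node arm and from 199, 187 and 279 CPM to 294, 376, 561, 363 and 415 CPM in the lung arm. Its changes were -1.97 ± 0.24 and 0.86 ± 0.26 (log2, SE, interaction edgeR adjusted p = 9.39e-05). Bag5, a co-chaperone of Hsp70, Grk5, a kinase of G protein-coupled receptors, and Lyz1, a lysozyme, fell by 0.80, 0.71 and 0.74 (log2) in the lymph node and rose by 0.67, 0.72 and 0.72 in the lung. Lyz1 is a close copy of Lyz2, so its reads are uncertain, and Cebpd overlaps Spidr on the opposite strand.

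Among the genes that rose in the lymph node and fell in the lung, Gfod1 had the cleanest separation. It lay at 15.4, 12.9 and 11.9 CPM in FVB BM IMs, at 28.3, 44.4, 30.3, 38.5 and 41.0 CPM in lymph node TIMs, at 14.1, 11.2 and 12.4 CPM in DBA2 BM IMs and at 3.86, 3.12, 9.22, 5.33 and 3.92 CPM in lung TIMs, an interaction of 2.75 ± 0.42 (log2, SE, edgeR adjusted p = 0.000433). Met, the receptor of hepatocyte growth factor, changed by 1.25 ± 0.27 and -1.15 ± 0.25, but its marrow groups differed (means of 28.0 and 65.2 CPM). Mdm1, a centriole protein, Acss1, a mitochondrial acetyl-CoA synthetase, and Prr5, a subunit of mTORC2, had interactions of 2.19 ± 0.32, 2.11 ± 0.50 and 2.84 ± 0.58 (log2, SE, edgeR adjusted p = 0.000312, 0.00980 and 0.00421). In Acss1 and Mdm1, lymph node TIM replicate 1 was the lowest of its group, at 30.4 and 44.3 CPM against at least 82.0 and 79.7 CPM in the others. Prr5 ran from 4.98 to 29.6 CPM in lymph node TIMs, so that group overlapped its marrow. Mdm1 and Acss1 overlap genes on the opposite strand.

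**Figure D4:**
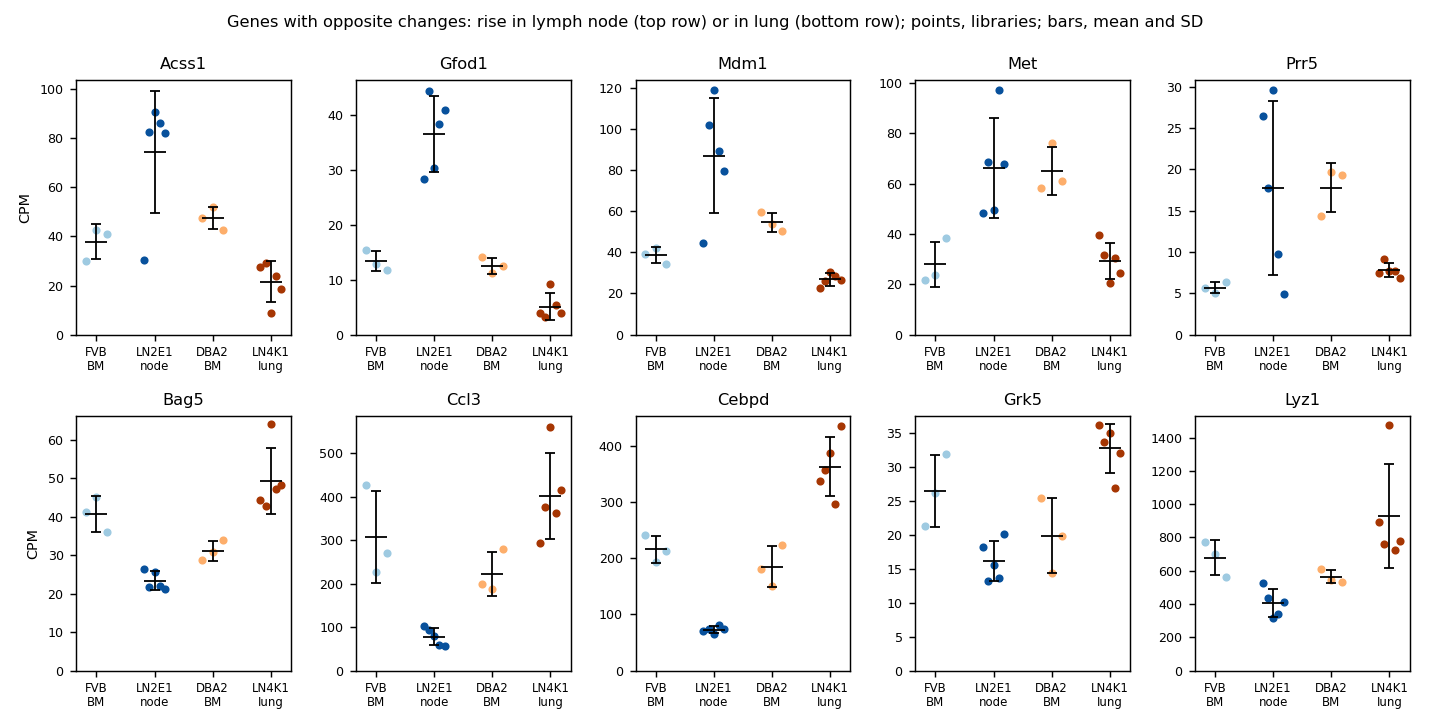
Each panel is 1 gene, with CPM per library on a y axis that starts at 0, the 4 groups on the x axis, and bars for the mean and SD. In the top row the lymph node TIM mean is above and the lung TIM mean below its own marrow group, and in the bottom row the reverse holds, as for Cebpd at 73.1 and 362 CPM against 216 and 185 CPM.

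Of the 10 candidate genes of the study, chosen by the study in part from these libraries as rising in every TIM group, 3 differed between the arms. All 3 were higher, as were 8.14% of all genes. Spon1, which encodes a secreted matrix protein, was nearly silent in FVB BM IMs at 0.160, 0.0817 and 0 CPM and had 42.1, 51.9, 50.7, 78.1 and 54.6 CPM in lymph node TIMs. DBA2 BM IMs already had 8.51, 11.99 and 18.02 CPM, and lung TIMs had 190, 220, 57.9, 190 and 101 CPM. So its level was higher in lung TIMs while its log2 change was larger in the lymph node arm, 9.48 ± 0.73 against 3.56 ± 0.51, and the interaction was 5.92 ± 0.77 (log2, SE, edgeR adjusted p = 0.000113). Cfb, complement factor B, and Csrnp1, a nuclear protein that Axin induces, had interactions of 3.05 ± 0.35 and 2.34 ± 0.31 (log2, SE, edgeR adjusted p = 3.83e-05 and 0.000124). Cfb ended higher in lymph node TIMs, at a mean of 859 CPM against 345 CPM, and shares exons with Gm20547. In all 3 the marrow difference was larger than the TIM difference. On GRCm38, Spon1 lies at chr7:113765998-114043370 on the plus strand.

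The other 7 did not pass. Il1b, the inflammasome cytokine, rose by 6.95 and 7.16 (log2) in the lymph node and lung arms, an interaction of -0.22 ± 0.55 (edgeR adjusted p = 0.856). Socs3, the feedback inhibitor of Stat3, rose by 8.15 and 8.00, an interaction of 0.14 ± 0.68 (edgeR adjusted p = 0.942). Its values spread widely, with 3391, 4541, 1057, 2606 and 3723 CPM in lung TIMs and 5.90, 4.99 and 24.9 CPM in DBA2 BM IMs. Icam1, Sdcbp, Gadd45b, Klf7 and Ifitm2 lay between 0.34 and 0.69 (log2). Of these, Gadd45b passed by DESeq2, by limma voom, without FVB BM IM replicate 1, without lung TIM replicate 3 and without both libraries that stood apart, Sdcbp by limma voom and without lymph node TIM replicate 3, and Ifitm2 by limma voom. Between 2 and 6 of the 10 candidates were called across the alternatives.

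CC chemokines had 1 of 12 members higher and 4 lower, beside 8.14% and 7.25% of all genes, with a median of -1.05. Those shares of all genes also stand beside the other lists of this paragraph. The 1 higher, Ccl7, a monocyte chemoattractant, was called in 7 of the 16 models that leave out 1 library. The 4 lower became 1 or 2 without FVB BM IM replicate 1 or 2 or DBA2 BM IM replicate 2 or 3. Ccl4 rose in both arms and less in the lymph node, from 57.3, 40.7 and 48.9 CPM to 365, 319, 254, 250 and 252 CPM there and from 46.3, 52.9 and 85.4 CPM to 569, 747, 1463, 789 and 773 CPM in the lung (interaction -1.26 ± 0.37, log2, SE, edgeR adjusted p = 0.0321, with the call held in 10 of the 16 models that leave out 1 library). CXC chemokines had 3 of 12 higher and 3 lower, and the 3 lower became 0 or 1 without any 1 of 7 libraries. Cxcl10, an interferon-induced ligand of Cxcr3, had 3.31 ± 0.35 (log2, SE, edgeR adjusted p = 1.65e-05). Of the 3 lower, Pf4 and Ppbp are platelet chemokines. Chemokine receptors had 3 of 11 higher and 1 lower, Ccr2, and without DBA2 BM IM replicate 2 there was 1 higher. The interleukin-1 family had 6 of 20 higher and 1 lower (3 higher without DBA2 BM IM replicate 2), and JAK-STAT receptors and inhibitors 7 of 22 higher and 2 lower (4 higher without FVB BM IM replicate 1 or 2, DBA2 BM IM replicate 3 or lung TIM replicate 5). Socs1, the inhibitor of interferon signalling, had 2.40 ± 0.22 (log2, SE, edgeR adjusted p = 5.51e-06), from marrow means of 3.03 and 3.38 CPM to 126 CPM in lymph node and 26.6 CPM in lung TIMs. Il6 had -2.86 ± 0.82 (log2, SE, edgeR adjusted p = 0.0271) at means of at most 8.79 CPM. The Il6 call was lost without FVB BM IM replicate 1 or 2 or DBA2 BM IM replicate 1 or 2.

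The shares to set beside the next lists were 8.14% higher and 7.25% lower over all genes tested. NF-kB subunits and feedback genes had 7 of 17 higher and 0 lower (median 0.50, and 8 and 1 at an unadjusted p under 0.05). Tnfaip3, the A20 deubiquitinase, was at 2.51 ± 0.38. Complement had 6 of 16 higher and 0 lower (10 and 0 unadjusted), with C4b at 5.45 ± 0.93 and Itgax (CD11c) at 3.96 ± 0.69. Integrins and adhesion receptors had 6 of 21 higher and 0 lower (11 and 1 unadjusted, and 11 and 1 adjusted without both libraries that stood apart), led by Pecam1 at 4.16 ± 0.44. Pecam1 is carried by monocytes and endothelium alike. The 10 endothelial markers, Pecam1 included, summed to 9.82 to 16.9 CPM in FVB BM IMs, 71.8 to 131 in lymph node TIMs, 14.1 to 16.5 in DBA2 BM IMs and 12.1 to 24.4 in lung TIMs, of which Pecam1 averaged 76.1 CPM in lymph node TIMs. In the lymph node arm 4 of them rose and 3 fell, and in the interaction Pecam1 was higher and 3 were lower (Cldn5, Emcn and Ramp2, at most 0.00992 CPM on average in lymph node TIMs). The part of endothelium in the Pecam1 result was not tested. These p-values, by edgeR and adjusted, were 0.000463 for Tnfaip3, 0.00119 for C4b, 0.00134 for Itgax and 1.63e-05 for Pecam1.

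**Figure D5:**
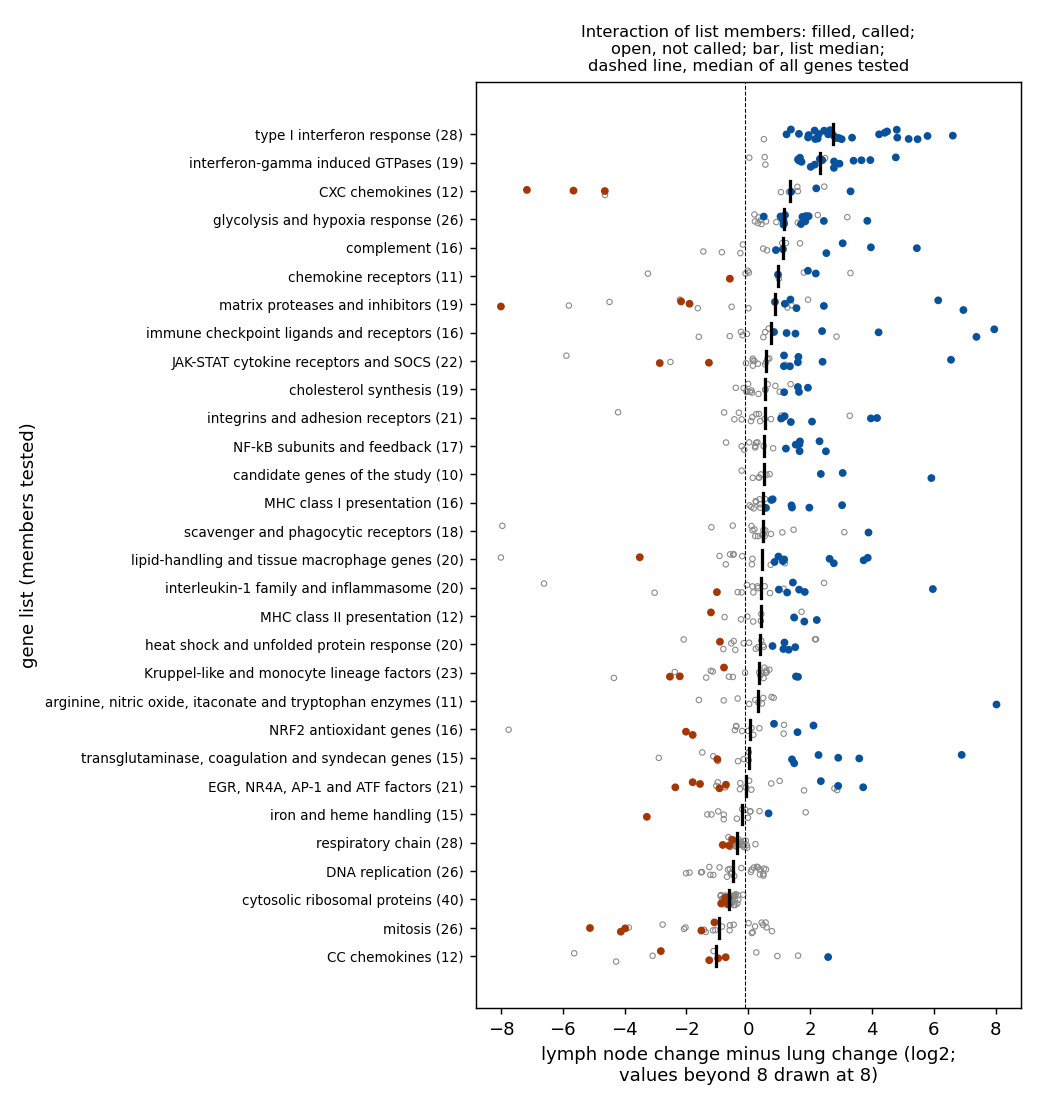
Each row is a gene list with the number of members tested, and each point is the interaction of 1 member in log2, filled if called. The black bars are list medians, from 2.75 for the type I interferon response at the top to -1.05 for CC chemokines at the bottom, beside the dashed line at -0.10 for all genes.

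Among lipid-handling and tissue macrophage genes 8 of 20 were higher and 1, Spp1, lower, beside 8.14% and 7.25% of all genes. Cd36, a fatty acid and lipoprotein scavenger receptor, lay at 4.13, 6.11 and 4.28 CPM in FVB BM IMs, at 220, 382, 377, 396 and 266 CPM in lymph node TIMs, at 3.91, 3.91 and 5.36 CPM in DBA2 BM IMs and at 21.6, 15.2, 29.5, 20.8 and 15.4 CPM in lung TIMs. The marrow groups overlapped and the TIM groups did not, with an interaction of 3.86 ± 0.36 (log2, SE, edgeR adjusted p = 5.42e-06). Pparg, the nuclear receptor that drives Cd36, had 3.73 ± 0.35 (log2, SE, edgeR adjusted p = 5.56e-06). Fabp4, a fatty acid carrier, had 2.76 ± 0.73 (log2, SE, edgeR adjusted p = 0.0190). The Fabp4 call was lost without FVB BM IM replicate 1 or 2 or DBA2 BM IM replicate 3. Without FVB BM IM replicate 1 or 2, 5 of the list were higher. Of 18 scavenger and phagocytic receptors, Cd36 was the only one called, while 2 were higher without FVB BM IM replicate 3 or lung TIM replicate 3 and 2 lower without lymph node TIM replicate 1. Alveolar macrophages also carry Pparg and Fabp4, and the markers of these cells summed to 208 to 266 CPM in FVB BM IMs, 56.7 to 118 in lymph node TIMs, 69.4 to 130.3 in DBA2 BM IMs and 31.7 to 86.1 in lung TIMs. That list holds Pparg and Fabp4 themselves and shares genes with the eosinophil list. The part of alveolar macrophages in the Pparg and Fabp4 results was not tested.

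Matrix proteases and inhibitors had 7 of 19 higher and 3 lower, beside 8.14% and 7.25% of all genes. The 3 lower became 1 without DBA2 BM IM replicate 2 or 3. Among the higher was Adam8, a metalloprotease of myeloid cells, at 2.44 ± 0.53 (log2, SE, edgeR adjusted p = 0.00581). Transglutaminase, coagulation and syndecan genes had 6 of 15 higher and 1 lower, with Sdc3 at 3.59 ± 0.27 and the matricellular Thbs1 at 2.91 ± 0.59 (log2, SE, edgeR adjusted p = 9.69e-07 and 0.00390). Cholesterol synthesis genes had 4 of 19 higher and 0 lower (5 and 0 unadjusted, and 1 lower without lung TIM replicate 3). Insig1 and Srebf2, parts of the sterol sensor system, were among those 4, at 1.64 and 1.60 (log2). Nos2, inducible nitric oxide synthase, was the only called gene of 11 in the arginine and tryptophan list, and its call was lost without DBA2 BM IM replicate 1 or 2, while without FVB BM IM replicate 3 or lymph node TIM replicate 1 the list had 2. It was at 0 counts in every FVB BM IM library, so no fold is given for it, and its mean was 30.6 CPM in lymph node TIMs and 0.764 CPM in lung TIMs. Arg1, which competes with Nos2 for arginine, had means of 35.2 and 33.2 CPM and an interaction of -0.80 ± 0.90 (log2, SE, edgeR adjusted p = 0.619).

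Of EGR, NR4A, AP-1 and ATF factors 3 of 21 were higher and 5 lower, beside 8.14% and 7.25% of all genes. Nr4a2, an orphan nuclear receptor, had 3.71 ± 0.53, Maff 2.90 ± 0.54, and Ier3, a stress-induced survival gene, -2.36 ± 0.41 (log2, SE, edgeR adjusted p = 0.000266, 0.00224 and 0.00134). Ier3 rose in both arms, from 48.4, 15.6 and 28.4 CPM to 299, 211, 187, 182 and 253 CPM in the lymph node and from 16.1, 16.9 and 16.5 CPM to 532, 593, 422, 697 and 867 CPM in the lung. Kruppel-like and monocyte lineage factors had shares near those of all genes, with 2 of 23 higher and 3 lower, among them Irf8, needed for monocytes and dendritic cells, at 1.61 ± 0.23 and Klf13 at -2.22 ± 0.46 (log2, SE, edgeR adjusted p = 0.000230 and 0.00448). Heat shock and unfolded protein genes had 5 of 20 higher (3 without FVB BM IM replicate 1 or 2 or DBA2 BM IM replicate 3) and 1 lower, the latter being Xbp1, a factor of the unfolded protein response, at -0.92 ± 0.15 (log2, SE, edgeR adjusted p = 0.00104).

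Cell division genes fell in both arms. All 26 DNA replication genes tested and all 26 mitosis genes tested fell in lymph node and in lung TIMs. The median log2 changes were -3.83 and -3.67 for replication and -6.07 and -5.45 for mitosis. Of all genes, 20.1% fell in the lymph node arm and 8.13% in the lung arm, and 7.25% had a lower interaction. For replication, 0 genes were called in the interaction by edgeR, 4 had an unadjusted p under 0.05 (1 higher and 3 lower), DESeq2 called 1 higher and 1 lower, and limma voom 1 higher and 7 lower. Without lymph node TIM replicate 1, edgeR called 4 replication genes lower, and without both libraries that stood apart 4 lower and 1 higher. For mitosis, 5 genes fell further in the lymph node, which became 9 without lymph node TIM replicate 1, 8 without lung TIM replicate 3 and 10 without both, the first and the last with 2 genes higher. Ccna2 (cyclin A2) ended at a mean of 0.2997 CPM in lymph node TIMs and 5.66 CPM in lung TIMs from marrow means of 187 and 220 CPM, an interaction of -3.98 ± 0.77 (log2, SE, edgeR adjusted p = 0.00266). Cenpf, a kinetochore protein, ended at 0.0744 and 2.02 CPM and had -4.12 ± 0.46 (log2, SE, edgeR adjusted p = 2.95e-05).

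Cytosolic ribosomal protein genes had 0 of 40 higher and 4 lower, with a median of -0.62, and respiratory chain genes 0 of 28 higher and 3 lower, with a median of -0.36. The shares called lower were near the 7.25% of all genes. At an unadjusted p under 0.05, 20 ribosomal and 7 respiratory genes were lower and 0 of either list higher. The interaction was above 0 for 0 ribosomal genes and 1 respiratory gene. Both counts of called genes depended on single libraries. The respiratory count was 1 without any 1 of 9 libraries (the 3 DBA2 BM IM libraries, FVB BM IM replicates 1 and 2, lymph node TIM replicates 3 and 4 and lung TIM replicates 4 and 5) and 5 without FVB BM IM replicate 3 or lymph node TIM replicate 1. For the ribosomal genes, without lymph node TIM replicate 1 the count was 16 and without both libraries that stood apart 15, but it was 0 without FVB BM IM replicate 1, FVB BM IM replicate 2 or DBA2 BM IM replicate 2 and 1 or 2 without DBA2 BM IM replicate 1 or 3, lymph node TIM replicate 2 or lung TIM replicate 5, and it ran from 0 to 20 over the alternatives. The 4 were Rpl14, Rps9, Rpl4 and Rps3, at -0.88 to -0.65 (log2), and close pseudogene copies make single ribosomal values uncertain. Iron and heme genes had 1 of 15 higher and 1 lower, and NRF2 antioxidant genes 3 of 16 higher and 2 lower, beside 8.14% and 7.25% of all genes. The 1 higher iron gene was lost in 11 of the 16 models that leave out 1 library, the 1 lower became 3 without lymph node TIM replicate 1 and 2 without lung TIM replicate 2, and the 2 lower NRF2 genes became 0 or 1 in 11 of them and 4 without both libraries that stood apart.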

How the data were processed

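Inflammatory monocytes were profiled by RNA-Seq with a SMARTer low-input and Nextera XT kit, which keep no strand. The authors trimmed reads with BBDuk, aligned them to mm10 with BBMap and deposited raw read counts per gene symbol from featureCounts 1.5.2 (Subread), with SAMtools 1.8 listed in the submitters' processing notes. The 23420 symbols and 21 libraries carried no unmapped column. Groups came from the sample labels. The members and gene lists were chosen with earlier results of these data known.

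The 16 libraries' counts were modelled with edgeR 4.0.16 under R 4.3.3 (filterByExpr, TMM, robust quasi-likelihood, 1 mean per group). The interaction and both changes came from this model, with Benjamini-Hochberg adjusted p under 0.05 over 14450 genes as a call, and SE as the absolute log2 change over the root of F. CPM used TMM factors, and log2 CPM for outliers a prior count of 2. Named genes were the study's candidates, the 10 largest interactions each way among genes called in all 16 models without 1 library, 5 genes each way with the largest opposite changes (both with a mean log2 CPM above 3), up to 4 called members with the largest interaction per list together with its defining members, and sort markers, passing over symbols that are only predicted or RIKEN names among the largest interactions and opposite changes. A group with at most 3 counts in each library gave no fold. This limit covers counting error only. The script was tested on simulated data. Gene positions are from GENCODE on GRCm38, and promoters from RefSeq on GRCm38.p6. Overlapping genes on either strand were marked, since counting without strand cannot separate them.

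Alternatives were DESeq2 size factors, no filter, 10 counts in every library, all 21 libraries, a block for replicate number, DESeq2 1.42.0, limma 3.58.1 voom with quality weights, each library left out, and the study's stricter threshold. Leaving out both libraries that stood apart was added after seeing the data. Figures were drawn in Python 3.11.15 with matplotlib 3.10.9. Some list members are counted but not reported singly here.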

Additional observations from a re-analysis of the deposited data

Results flagged for a closer look

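Values of 92 groups of 5 libraries were checked for a single library far from the rest (Dixon's ratio), and 7 were marked, where chance marks about 1 in 20. Lymph node TIM replicate 1 correlated least with its group, at a median r of 0.8924 against 0.9319 to 0.9351 for the other 4, and lung TIM replicate 3 likewise, at 0.9237 against 0.9635 to 0.9682. In log2 CPM, Acss1 was 4.93 in lymph node TIM replicate 1 (others 6.36 to 6.51) and Klrb1f -0.96 (others 0.34 to 0.81), Sdcbp was 10.18 in lymph node TIM replicate 3 (others 10.62 to 10.78), Lyz1 was 10.52 in lung TIM replicate 3 (others 9.51 to 9.80) and Ifit2 was 4.98 in lung TIM replicate 5 (others 6.05 to 6.21). By the test of the difference itself, 2223 genes differed between the lymph node and lung changes, and 93 of them had opposite changes that both passed.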

How the results depend on the processing

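Of the 2223 called genes that an alternative also tested, 0 changed sign, except 2 under the filter of 10 counts in every library. The count of 2223 interactions was 5052 by limma voom, 3529 without both libraries that stood apart and 100 at the study's threshold (adjusted p under 1e-04 and an absolute log2 over 1), and lay between 1234 and 3032 when 1 library was left out. The lymph node count of 5818 was 7989 by limma voom, 7306 without both libraries and 6599 with all 21 libraries. It lay between 4509 and 6460 when 1 library was left out. The lung count of 2958 was 5962 by limma voom, 3927 without both libraries, 3712 with all 21 libraries and 3636 by DESeq2. It lay between 1967 and 3575 when 1 library was left out. The 93 opposite changes were 165 with all 21 libraries, 41 with the replicate block, 403 by limma voom, 182 without both libraries and 33 to 136 without 1. Higher calls made up 52.9% of interactions, and 44.5% to 61.2% across the alternatives. Of 20 pairs of libraries with the same number, r lay between -0.154 and 0.091, so the numbers were not taken to pair the samples, and with the replicate block 1521 interactions passed. Il1b, -0.22 and not called, became 0.09 without DBA2 BM IM replicate 1, 0.08 without DBA2 BM IM replicate 2, 0.11 without lung TIM replicate 3 and 0.10 without both libraries, and ranged from -1.12 to 0.11 without 1 library. Socs3, 0.14 and not called, became -0.048 with the replicate block, -0.18 without FVB BM IM replicate 2, -0.99 without DBA2 BM IM replicate 3 and -0.05 without lung TIM replicate 3, and ranged from -0.99 to 0.51 without 1 library. The cause was not tested. Counts of small lists moved with single marrow libraries, and genes under about 1 CPM in a group have wide errors.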

Other observations

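LN2E1 primary tumor TIMs (n = 5), which share their FVB BM IM controls with the lymph node arm, give the same genes a further value. Compared with FVB BM IMs, 28 of 28 type I interferon genes, 19 of 19 interferon-inducible GTPases and 17 of 17 NF-kB genes were higher and 0 lower in them, with median log2 changes of 2.82, 4.77 and 1.79, beside 25.5% of 15357 genes and a median of 0.12. Of the glycolysis and hypoxia genes, 17 of 26 were higher, with a median of 1.04. All 26 replication and all 26 mitosis genes were lower, as were 30 of 40 ribosomal protein genes, beside 19.9% of all genes. Because the controls are the same libraries, these changes are not independent of the lymph node change.

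Histones of the Hist1h cluster moved as a group, a set picked out after Hist1h1e and Hist1h1d were seen. Of 49 tested, 24 had a lower interaction and 0 a higher one, beside 7.25% and 8.14% of all genes. The median log2 changes were -4.21 in the lymph node arm and -2.55 in the lung arm. In the lymph node 48 fell and in the lung 35 fell, beside 20.1% and 8.13% of all genes. Histone copies are close in sequence, so reads of single members are uncertain.

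Markers of epithelium did not move as 1 group. Lung epithelium markers summed to 250.3 to 318 CPM in FVB BM IMs, 111 to 165 in lymph node TIMs, 168 to 220.5 in DBA2 BM IMs and 236 to 327 in lung TIMs, most of it Hopx, at means of 290.2, 128, 189 and 244 CPM in the same order. Of 9 tested, 0 had a higher interaction and 3 a lower one (1 without DBA2 BM IM replicate 2 or 3), and 6 had a group at 3 counts or fewer per library. Over all genes tested, 8.14% had a higher interaction and 7.25% a lower one. Scgb1a1, the club cell secretoglobin, averaged 0.948, 0.244, 0.572 and 13.4 CPM. Squamous epithelium markers summed to 10.04 to 143 CPM in lymph node TIMs, and in lung TIMs to 67.0 to 135 CPM except for 1.24 CPM in replicate 3, against at most 2.498 CPM in marrow. Y-linked genes summed to more than 3 counts in 4 lung TIM libraries, at most 2.75 CPM, and in 0 libraries of the other groups. The source of the epithelial and Y-linked counts was not tested. NK cell markers summed to 147 to 199 CPM in lymph node and 68.5 to 98.9 CPM in lung TIMs, most of it Klrk1, at means of 168 and 61.2 CPM, while Ncr1 was at most 3 counts in every lymph node TIM library and averaged 2.09 CPM in lung TIMs. Of 10 NK genes, 9 were tested, 5 of them with a group at 3 counts or fewer per library, and 1 was higher and 5 lower. The 5 became 2 without any 1 DBA2 BM IM library or FVB BM IM replicate 1 or 2, and 3 without lymph node TIM replicate 4 or lung TIM replicate 4 or 5.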
